A study of Mus musculus with 11 samples.

Results

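The genes described here are 33 mouse genes of glycolysis, pyruvate handling and glucose supply, taken by name from a list and followed across naive and memory CD8 T cells. All 33 were found in the count table, which holds 52636 genes, and all 33 were among the 13735 genes expressed highly enough to be tested. RNA was sequenced from CD8 T cells sorted from spleens of C57BL/6 mice in 3 groups. CD45RBhi NP396+ memory cells gave 4 libraries, CD45RBlo NP396+ memory cells gave 4, and naive CD44lo cells gave 3. The memory groups came from mice given 200000 pfu of LCMV Armstrong by the intraperitoneal route, a virus that is cleared after an acute infection. They were sorted at days 42 to 45 (week 6) with an NP396 tetramer, which holds on to cells whose receptor sees 1 nucleoprotein peptide of the virus, to a purity stated as above 99%. CD45RB is a splice form of the surface phosphatase CD45. The labels of the naive libraries repeat the infection text and add a time entry of 6 to 8 weeks whose meaning is not stated, so whether naive and memory mice differed in age or infection is not known here. The labels do not say that replicates came from separate animals, so every p-value below speaks of the spread between libraries, some of which may be technical.

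Glycolysis splits glucose into pyruvate in the cytosol. Glucose enters through transporters of the Slc2a family and is trapped by a hexokinase, phosphofructokinase commits it to the pathway, and pyruvate kinase makes pyruvate at the end. Pyruvate then has a pair of main fates. Lactate dehydrogenase turns it into lactate, which leaves through monocarboxylate transporters (Slc16a family). Otherwise the mitochondrial carrier made of Mpc1 and Mpc2 imports it, and the pyruvate dehydrogenase complex turns it into acetyl-CoA. Pyruvate dehydrogenase kinases (Pdk genes) switch that complex off by phosphorylating the subunit that Pdha1 encodes. Naive CD8 T cells are known for a low rate of glycolysis, activated ones for a high rate, and memory cells for a quick return to glycolysis when they meet antigen again. Transcript levels do not measure that rate.

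The promoter windows of 5 members that differed widely between memory and naive cells, chosen after their values were seen, are shown first, because some of these genes are known targets of hypoxia-inducible factor, a transcription factor whose alpha subunit is itself a member (Hif1a). Each window is the 250 bases before the gene start listed by RefSeq (GRCm38.p6), read on the gene's strand. Capitals mark ACGTG or GCGTG on either strand (on the other strand CACGT or CACGC), the core letters of the hypoxia response element. ACGTG overlaps with the E-box CACGTG. The windows lie at chr2:71872974-71873223 (+) for Pdk1, chr6:142507958-142508207 (-) for Ldhb, chr6:82774455-82774704 (-) for Hk2, chr11:120948817-120949066 (+) for Slc16a3 and chr13:6648772-6649021 (-) for Pfkp. The gene bodies in GENCODE M21 (GRCm38) are chr2:71873224-71903858 for Pdk1 (ENSMUSG00000006494), chr6:142490249-142507957 for Ldhb (ENSMUSG00000030246), chr6:82725025-82774454 for Hk2 (ENSMUSG00000000628), chr11:120948480-120960868 for Slc16a3 (ENSMUSG00000025161) and chr13:6579768-6648777 for Pfkp (ENSMUSG00000021196).
Pdk1: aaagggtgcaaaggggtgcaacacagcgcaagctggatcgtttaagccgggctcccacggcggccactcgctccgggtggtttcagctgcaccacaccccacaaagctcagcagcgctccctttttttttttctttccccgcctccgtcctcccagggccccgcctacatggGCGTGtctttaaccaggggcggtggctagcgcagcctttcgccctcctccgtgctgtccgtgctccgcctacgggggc
Ldhb: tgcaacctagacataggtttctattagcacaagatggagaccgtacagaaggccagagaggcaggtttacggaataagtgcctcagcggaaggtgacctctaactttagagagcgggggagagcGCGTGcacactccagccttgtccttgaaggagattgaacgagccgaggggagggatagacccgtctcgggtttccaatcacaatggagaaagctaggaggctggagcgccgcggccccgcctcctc
Hk2: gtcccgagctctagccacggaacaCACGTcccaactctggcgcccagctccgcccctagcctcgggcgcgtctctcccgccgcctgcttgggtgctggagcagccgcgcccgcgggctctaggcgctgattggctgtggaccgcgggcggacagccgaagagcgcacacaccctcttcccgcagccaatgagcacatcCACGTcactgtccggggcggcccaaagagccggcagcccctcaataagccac
Slc16a3: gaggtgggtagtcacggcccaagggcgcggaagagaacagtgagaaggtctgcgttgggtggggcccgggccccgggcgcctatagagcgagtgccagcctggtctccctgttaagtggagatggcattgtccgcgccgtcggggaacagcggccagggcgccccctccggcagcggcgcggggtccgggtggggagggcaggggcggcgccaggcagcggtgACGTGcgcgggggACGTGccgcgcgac
Pfkp: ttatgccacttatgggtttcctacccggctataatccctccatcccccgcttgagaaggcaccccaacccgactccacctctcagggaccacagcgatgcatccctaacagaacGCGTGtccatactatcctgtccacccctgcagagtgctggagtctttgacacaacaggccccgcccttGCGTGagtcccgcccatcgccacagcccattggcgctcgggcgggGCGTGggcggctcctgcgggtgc
The Hk2 and Slc16a3 windows hold the core 2 times each, the Pfkp window 3 times, and the Pdk1 and Ldhb windows 1 time each. In Slc16a3 the matches begin 27 and 14 bases before the RefSeq start, which lies inside the GENCODE gene body, since that annotation starts the gene further upstream. A RefSeq window was matched for 32 of the 33 members, and 27 of those 32 (84.4%) hold the core. The same letters stand in 38.6% of all 27025 windows of this length and in 57.4% of the 9093 windows of tested genes. Among tested genes with a GC content at or above the members' median of 62.6%, 69.3% of 3561 windows hold them. The full E-box CACGTG is in 5 member windows (15.6%) and in 6.05% of all windows. The match is a description of the letters. The core stands in the windows of genes that were higher in memory cells (Hk2, Slc16a3, Pfkp) and of genes that were lower (Pdk1, Ldhb).

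Total counts averaged 21.2 ± 1.38 M in CD45RBhi, 20.1 ± 1.78 M in CD45RBlo and 19.1 ± 1.41 M in naive libraries (SD). Levels are given as CPM, counts scaled to a common library size, on which 3 counts come to at most 0.17 CPM. The 33 members together took 0.813% to 0.943% of counts in CD45RBhi libraries, 0.781% to 0.913% in CD45RBlo libraries and 0.779% to 0.783% in naive libraries. The 6 CD8 T cell markers summed to 7416 to 8616 CPM in CD45RBhi, 6823 to 8335 CPM in CD45RBlo and 6764 to 7191 CPM in naive libraries. Against naive, 4 of them rose and 1 fell in CD45RBhi, and 1 rose and 1 fell in CD45RBlo cells. Cd8a was lower in memory, at 929.7 to 1049, 891 to 1063 and 1221 to 1379 CPM in the same order of groups. Cd44, the gene behind the naive gate, stood at 187 to 328, 176 to 270.1 and 12.1 to 17.8 CPM in that order. Most B cell markers and all tested erythroid and platelet markers were lower in memory than in naive libraries. The 8 B cell markers, most of whose sum is Ighm, summed to 205 to 500.5 CPM in CD45RBhi, 196 to 442 CPM in CD45RBlo and 1182 to 1344 CPM in naive libraries, and Pax5 was at 0 in both memory groups. Of the 7 tested, 5 fell and 1 rose in CD45RBhi and 6 fell and 1 rose in CD45RBlo cells. The one that rose was Cd22, at 5.92 to 10.6, 9.21 to 18.5 and 0.985 to 2.83 CPM in CD45RBhi, CD45RBlo and naive libraries. The 10 erythroid and platelet markers summed to 1.52 to 3.35, 3.79 to 30.1 and 251 to 544 CPM, and Slc4a1 was at 0 in CD45RBhi libraries. The 6 cell cycle markers summed to 51.2 to 123, 35.8 to 80.3 and 12.9 to 16.9 CPM. These values move with the memory against naive comparison, and their part in the results below was not tested. In sorted bulk RNA, fewer cells that carry a transcript and less of it per cell cannot be told apart.

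Memory cells carried more message than naive cells for most of the pathway between glucose entry and pyruvate, and less for the kinase Pdk1 and for Ldhb. CD45RBhi against naive, 17 members rose and 5 fell at an adjusted p under 0.05 (edgeR quasi-likelihood test, Benjamini-Hochberg adjustment over all genes tested), where 22.3% of all genes tested rose and 19.1% fell (41.5% in either direction). CD45RBlo against naive, 15 members rose and 8 fell, beside 22.4% and 19.8% of all genes (42.2% in either direction). The median log2 fold change of the 33 members was 0.31 in CD45RBhi and 0.21 in CD45RBlo cells, against -0.01 for all genes tested in each. The 2 comparisons share their naive libraries. Without scaling for library composition, the split was 12 higher and 9 lower for CD45RBhi and 11 higher and 10 lower for CD45RBlo, with the median of all genes at -0.16 and -0.14 and that of the members at 0.16 and 0.07. Leaving out that scaling took away the calls of Pgk1, Pkm, Pdk3, Mpc1 and Mpc2 in CD45RBhi cells. In CD45RBlo cells it took away those of Gpi1, Pfkfb3, Pgk1 and Pkm. It added lower calls of Slc16a1, Eno3, Pdha1 and Pdhb in CD45RBhi and of Ldha and Pdhb in CD45RBlo cells, and no called member changed direction. Libraries of the groups did not overlap for 25 members in CD45RBhi against naive. Of these 19 were higher and 6 lower, beside 24.1% and 23.3% of all genes tested (47.4% in all). In CD45RBlo against naive 26 did not overlap, 18 higher and 8 lower, beside 25.2% and 24.3% of all genes (49.6% in all).

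**Figure D1:**
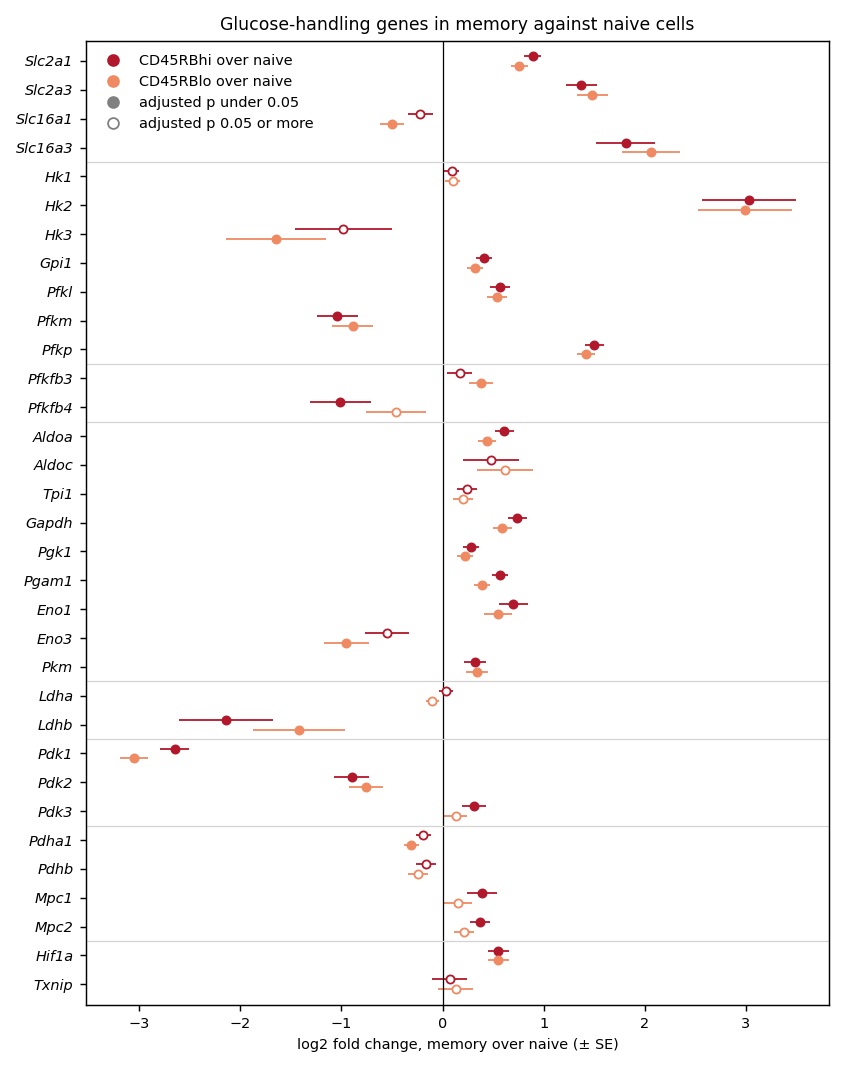
Log2 fold change (x axis, memory over naive, ± SE) of each of the 33 members (rows, in pathway order) for CD45RBhi over naive and CD45RBlo over naive; filled points have an adjusted p under 0.05. Hk2, Slc16a3, Pfkp and Slc2a3 lie farthest to the right in each series, and farthest to the left are Pdk1 and Ldhb for CD45RBhi and Pdk1 and Hk3 for CD45RBlo.

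Glucose transport genes were among those that rose. Slc2a3, the high-affinity glucose transporter GLUT3, had 312, 197, 236 and 249 CPM in CD45RBhi libraries, 322, 237, 238 and 277 CPM in CD45RBlo libraries, and 94.8, 105 and 87.8 CPM in naive libraries. Every memory library stood above every naive one. The fold was 2.59 for CD45RBhi (log2 1.37 ± 0.154 SE, adjusted p = 1.42e-05, edgeR) and 2.80 for CD45RBlo (1.48 ± 0.155, adjusted p = 6.77e-06). Slc2a1, which encodes GLUT1, the transporter that activated T cells load onto their surface, averaged 144 ± 1.71 CPM in CD45RBhi, 131 ± 11.8 CPM in CD45RBlo and 77.5 ± 5.12 CPM in naive libraries (SD, n = 4, 4 and 3). It rose by 0.89 ± 0.0869 on the log2 scale in CD45RBhi (adjusted p = 3.86e-06) and by 0.76 ± 0.0867 in CD45RBlo cells (adjusted p = 1.52e-05). On a scale of counts per exon length with a fixed sum over all genes (TPM-like), the sum of both transporters was 236 ± 17.8 in CD45RBhi, 241 ± 15.1 in CD45RBlo and 126 ± 4.35 in naive libraries, with Slc2a3 holding 45.3%, 49.6% and 37.5% of it.

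Of the lactate transporters, Slc16a3 rose in each memory group and Slc16a1 fell in CD45RBlo cells. Slc16a3, which encodes MCT4, the exporter typical of glycolytic cells, had 6.22, 3.21, 7.21 and 6.59 CPM in CD45RBhi, 6.63, 5.67, 7.21 and 8.11 CPM in CD45RBlo, and 1.37, 1.61 and 1.97 CPM in naive libraries. The groups of memory libraries lay clear of the naive ones at a low level that rests on 30 to 40 counts per naive library. Slc16a3 rose 3.51-fold in CD45RBhi (log2 1.81 ± 0.288, adjusted p = 0.000267, edgeR) and 4.18-fold in CD45RBlo cells (2.06 ± 0.29, adjusted p = 8.82e-05). Slc16a1, which encodes the more widespread transporter MCT1, averaged 149 ± 24.2 CPM in CD45RBhi, 123 ± 11.2 CPM in CD45RBlo and 174 ± 10.1 CPM in naive libraries. It fell in CD45RBlo cells (-0.50 ± 0.122, adjusted p = 0.0053), while its log2 fold change in CD45RBhi cells was -0.22 ± 0.123 (adjusted p = 0.165, edgeR). Per length, Slc16a3 held 3.09% of the pair in CD45RBhi, 4.47% in CD45RBlo and 0.79% in naive libraries, so Slc16a1 stayed the more abundant transcript.

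Of the 3 hexokinases, which phosphorylate glucose, Hk1 made up 94.8% of the family per length in CD45RBhi, 95.3% in CD45RBlo and 96.9% in naive libraries. Hk1 itself, the housekeeping form, averaged 343 ± 21.7, 345 ± 18.8 and 323 ± 13.4 CPM in the same order, with log2 fold changes of 0.09 ± 0.0753 (adjusted p = 0.37, edgeR) and 0.10 ± 0.0753 (adjusted p = 0.333). Hk2, the inducible form, had 14.9, 5.34, 8.85 and 12.1 CPM in CD45RBhi, 13.5, 6.59, 9.18 and 10.7 CPM in CD45RBlo, and 0.457, 1.45 and 1.87 CPM in naive libraries. Its lowest memory library, CD45RBhi replicate 2, was above its highest naive library. The fold was 8.18 for CD45RBhi (log2 3.03 ± 0.461, adjusted p = 0.000187, edgeR) and 7.95 for CD45RBlo (2.99 ± 0.461, adjusted p = 0.000192), the largest rise among the 33 members. Hk2 held 4.03% of the family per length in CD45RBhi, 3.96% in CD45RBlo and 0.549% in naive libraries, and its naive level rests on 10, 28 and 38 counts. Hk3, a form known from myeloid cells, had 1.1, 2.73, 2.29 and 1.36 CPM in CD45RBhi, 0.283, 1.21, 1.92 and 1.29 CPM in CD45RBlo, and 3.65, 5.24 and 2.26 CPM in naive libraries. The naive group overlapped with CD45RBhi and not with CD45RBlo libraries. Hk3 fell in CD45RBlo cells (-1.65 ± 0.495, adjusted p = 0.0172, edgeR) and had a log2 fold change of -0.98 ± 0.482 in CD45RBhi cells (adjusted p = 0.123). Without naive replicate 2 the CD45RBlo value had an adjusted p of 0.0878 (0.00477 to 0.0878 over all settings tried). The 10 myeloid markers summed to 3.04 to 10.6 CPM in CD45RBhi, 7.97 to 16 CPM in CD45RBlo and 29.4 to 52.1 CPM in naive libraries, where S100a9 was at 0 in CD45RBlo and naive libraries and S100a8, S100a9, Csf3r and Mpeg1 were at 0 in CD45RBhi libraries. Of the 6 tested, 5 fell and 1 rose in each memory group. The one that rose was Itgam, which also stands on other leukocytes, at 2.39 to 8.17 CPM in CD45RBhi, 3.88 to 11.7 CPM in CD45RBlo and 0.411 to 0.933 CPM in naive libraries, and it was the highest of the 10 in each memory library. The part of these markers in the Hk3 values was not tested.

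Phosphofructokinase differed in isoform make-up between memory and naive cells. Pfkp, the platelet-type subunit, had 752, 933, 863 and 849 CPM in CD45RBhi, 777, 884, 724 and 833 CPM in CD45RBlo, and 302, 312 and 288 CPM in naive libraries. The lowest memory library, at 724 CPM, stood far above the highest naive one, at 312 CPM. Pfkp rose 2.83-fold in CD45RBhi (log2 1.5 ± 0.0922, adjusted p = 5.23e-08, edgeR) and 2.68-fold in CD45RBlo cells (1.42 ± 0.0919, adjusted p = 7.44e-08). Pfkm, the muscle-type subunit, went the other way, with 4.46, 7.16, 8.26 and 7.59 CPM in CD45RBhi, 8.1, 5.86, 8.97 and 7.46 CPM in CD45RBlo, and 13.8, 15 and 13.5 CPM in naive libraries. It fell to 0.487 of the naive level in CD45RBhi (log2 -1.04 ± 0.206, adjusted p = 0.00135) and to 0.538 of it in CD45RBlo cells (-0.89 ± 0.206, adjusted p = 0.00355). Pfkl, the liver-type subunit, averaged 238 ± 19.7 CPM in CD45RBhi, 231 ± 26.8 CPM in CD45RBlo and 159.7 ± 6.3 CPM in naive libraries, a rise of 0.57 ± 0.0985 in CD45RBhi (adjusted p = 0.000477) and of 0.54 ± 0.0985 in CD45RBlo cells (adjusted p = 0.000744). Per length, Pfkp made up 62.7% ± 0.799 of the family in CD45RBhi, 61.9% ± 1.32 in CD45RBlo and 44.3% ± 0.768 in naive libraries (SD). Pfkl made up 35.3%, 35.7% and 47.3%, and Pfkm 2.02%, 2.38% and 8.36%. Per length, Pfkp was thus the largest of the 3 in memory libraries and Pfkl in naive ones. That order depends on the exon lengths used, 13401 bases for Pfkp and 6675 for Pfkl, which cover all annotated exons of a gene. In CPM, Pfkp was above Pfkl in naive libraries too, where Pfkl had 167, 159 and 154 CPM. Gpi1, which interconverts glucose and fructose phosphates, averaged 295 ± 15.5, 279 ± 18.7 and 223 ± 12.2 CPM in CD45RBhi, CD45RBlo and naive libraries and rose by 0.41 ± 0.0789 (adjusted p = 0.00117) and 0.32 ± 0.0788 (adjusted p = 0.00536).

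**Figure D2:**
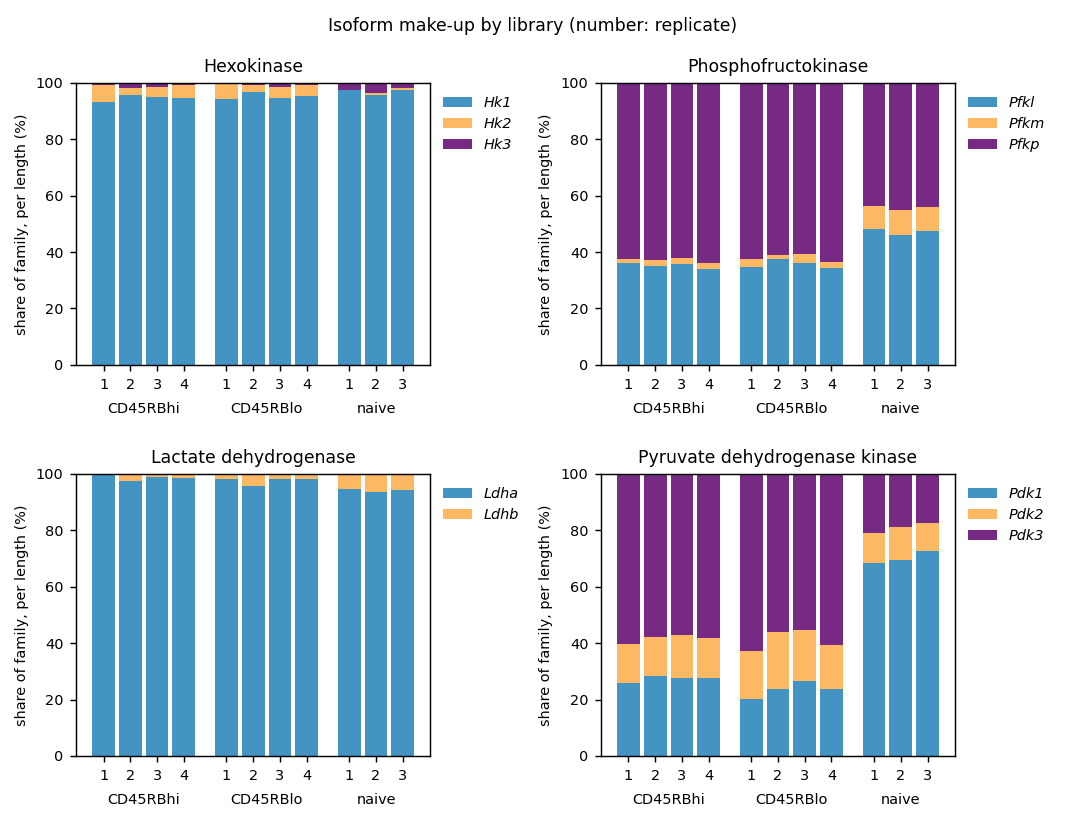
Share of each isoform in its family's level per exon length (y axis, percent) in each library (x axis, number: replicate) for 4 enzyme families, grouped as CD45RBhi, CD45RBlo and naive. On this scale Pfkp is above Pfkl in memory libraries and below it in naive ones, and Pdk3 has the largest share in memory libraries and Pdk1 in naive ones. Both orders depend on the exon lengths used. In CPM, Pfkp is above Pfkl in every library and Pdk1 above Pdk3 in most.

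The enzymes Pfkfb3 and Pfkfb4 make and break fructose 2,6-bisphosphate, the strongest known activator of phosphofructokinase. Pfkfb3, which mainly makes it, averaged 17.7 ± 1.27 CPM in CD45RBhi, 20.6 ± 2.52 CPM in CD45RBlo and 15.8 ± 0.463 CPM in naive libraries. It rose in CD45RBlo cells (0.38 ± 0.122, adjusted p = 0.0229, edgeR), while CD45RBhi cells had a log2 fold change of 0.17 ± 0.122 (adjusted p = 0.295). The CD45RBlo call was lost without CD45RBlo replicate 1 or 4 or any 1 naive replicate (adjusted p up to 0.0774). Pfkfb4 had 2.41, 4.6, 3.73 and 4.5 CPM in CD45RBhi, 4.25, 6.4, 3.47 and 8.11 CPM in CD45RBlo, and 7.77, 8.82 and 6.4 CPM in naive libraries. CD45RBhi libraries lay below all naive ones and CD45RBlo libraries reached into the naive range. It fell in CD45RBhi cells (log2 -1.01 ± 0.299, adjusted p = 0.0166, lost without naive replicate 2 at adjusted p = 0.0673, with 0.00199 to 0.0673 over all settings tried) and had -0.46 ± 0.297 in CD45RBlo cells (adjusted p = 0.24).

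**Figure D3:**
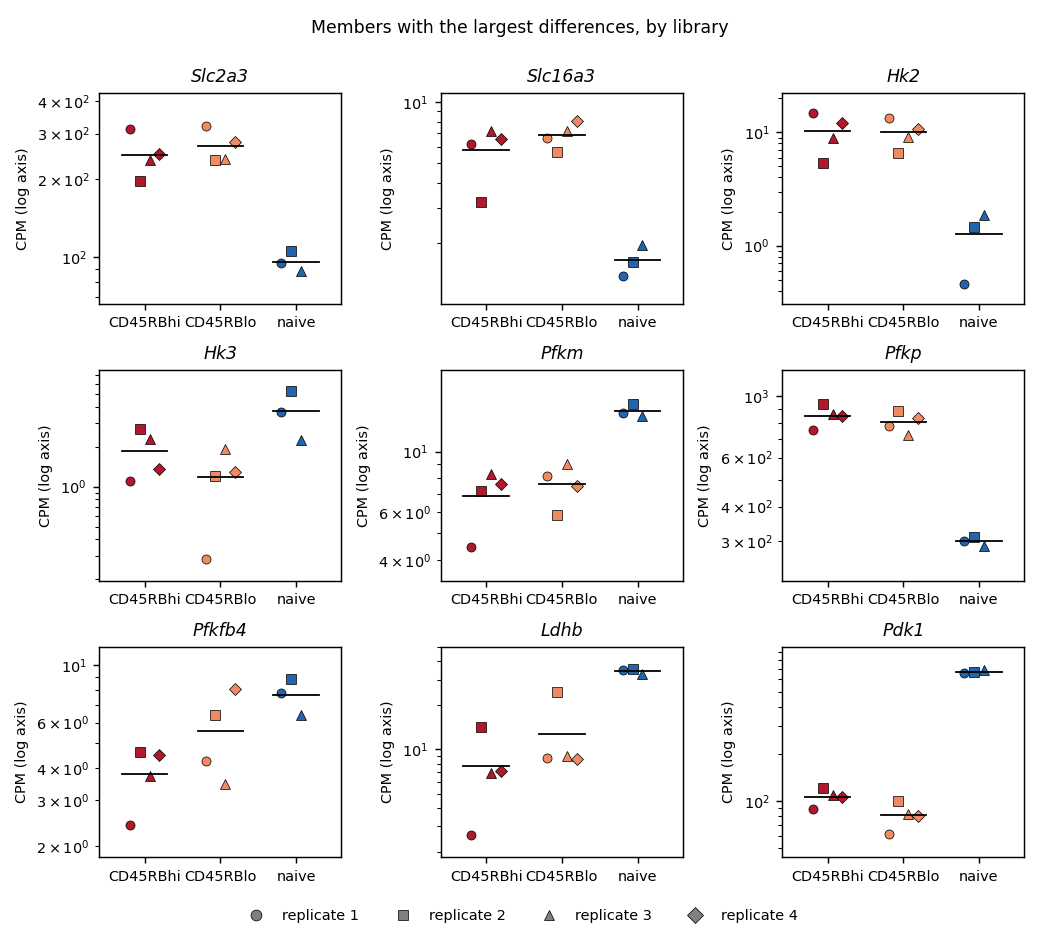
Level in CPM (y axis, log scale) in each library of the 9 members given per library in the text; marker shape is the replicate number and lines are group means. Pdk1 lies between 61.8 and 121 CPM in memory libraries and between 660.3 and 685 CPM in naive ones.

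From aldolase to pyruvate kinase, 6 of 9 members rose in CD45RBhi and 6 of 9 in CD45RBlo cells, beside 22.3% and 22.4% of all genes tested, and their median log2 fold changes were 0.48 and 0.39. Aldoa, the main aldolase, averaged 925 ± 73 CPM in CD45RBhi, 820.3 ± 94 CPM in CD45RBlo and 605 ± 14.3 CPM in naive libraries and rose by 0.61 ± 0.0933 (adjusted p = 0.000189, edgeR) and 0.44 ± 0.0928 (adjusted p = 0.002). Eno1, the main enolase, averaged 1847 ± 310.3, 1665 ± 302 and 1140 ± 29.2 CPM and rose by 0.70 ± 0.142 and 0.55 ± 0.141 (adjusted p = 0.00163 and 0.00727). Gapdh, which oxidises glyceraldehyde 3-phosphate, averaged 33.9 ± 0.691, 30.5 ± 1.62 and 20.2 ± 0.927 CPM and rose by 0.74 ± 0.0925 and 0.59 ± 0.0923 (adjusted p = 3.49e-05 and 0.000205). Its level is uncertain, because the table holds 76 other genes whose transcripts match it at 95% identity or more over at least 200 bases, and these hold 1754 counts beside its 6424. Pgam1, a phosphoglycerate mutase, rose by 0.57 ± 0.08 and 0.39 ± 0.0797, and Pgk1, which makes ATP in the step before it, by 0.28 ± 0.0803 and 0.22 ± 0.0802. Pkm, the pyruvate kinase of most tissues, rose by 0.32 ± 0.108 and 0.34 ± 0.108. The small changes of Pgk1 and Pkm depended on single libraries. The Pkm call was lost without any 1 naive replicate in both comparisons (adjusted p up to 0.0936 and 0.0789), as well as without CD45RBhi replicate 2 or 3 or CD45RBlo replicate 4 for CD45RBhi, and without CD45RBlo replicate 2 or 4 for CD45RBlo. The Pgk1 call was lost without naive replicate 3 for CD45RBhi (0.0543), and for CD45RBlo without CD45RBhi replicate 3 or 4, CD45RBlo replicate 2 or 4 or any 1 naive replicate (up to 0.136). Pkm reads may also fall on Gm49759 and Gm6560, which hold 15333 counts beside its 166561.

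The remaining members of this stretch did not pass the test for a rise. Tpi1, the triose phosphate isomerase, averaged 116 ± 9.1, 113 ± 12.2 and 98.1 ± 2.03 CPM (adjusted p = 0.0626 and 0.115, edgeR), with no overlap with naive libraries in either memory group. Its CD45RBhi value passed the threshold without CD45RBhi replicate 1 or CD45RBlo replicate 2 (lowest adjusted p = 0.0261). Aldoc, a minor aldolase best known from brain, averaged 4.24 ± 0.817, 4.68 ± 1.7 and 3.04 ± 0.395 CPM (adjusted p = 0.19 and 0.0929). Eno3, the muscle enolase, averaged 12.8 ± 4.49 CPM in CD45RBhi, 9.75 ± 1.24 CPM in CD45RBlo and 18.8 ± 0.695 CPM in naive libraries. It fell in CD45RBlo cells (-0.95 ± 0.218, adjusted p = 0.00354). In CD45RBhi cells its log2 fold change was -0.55 ± 0.216 (adjusted p = 0.0584), where replicate 2 stood at 19.2 CPM within the naive range and the others at 8.93 to 12.3 CPM. Without that library the value was -0.82 (adjusted p = 0.00123, with up to 0.135 over all settings tried). Eno3 held 2.06% of enolase per length in CD45RBhi, 1.80% in CD45RBlo and 4.86% in naive libraries.

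The lactate dehydrogenase genes encode a subunit that favours lactate formation (Ldha) and one that favours its oxidation to pyruvate (Ldhb). Ldha had the highest level per length of all 33 members in each group, at 1132 ± 26.1 in CD45RBhi, 1071 ± 50.4 in CD45RBlo and 1264 ± 92.6 in naive libraries. This ranking takes Gapdh as counted, at 25.7, 23.9 and 17.5 per length in the same order. The level of Gapdh is uncertain because of its near-identical copies. The log2 fold changes of Ldha against naive were 0.03 ± 0.0687 (adjusted p = 0.756, edgeR) and -0.10 ± 0.0685 (adjusted p = 0.285). Ldhb had 2.61, 14.3, 6.86 and 7.17 CPM in CD45RBhi, 8.72, 24.8, 8.97 and 8.66 CPM in CD45RBlo, and 34.8, 35.3 and 33 CPM in naive libraries. Memory libraries were below naive ones throughout, and replicate 2 was the highest of each memory group. Ldhb fell to 0.227 of the naive level in CD45RBhi (log2 -2.14 ± 0.465, adjusted p = 0.00252, edgeR) and to 0.373 of it in CD45RBlo cells (-1.42 ± 0.455, adjusted p = 0.0236). The CD45RBlo call was lost without CD45RBlo replicate 1, 3 or 4 or any 1 naive replicate (adjusted p up to 0.0681). Ldhb held 1.34% of the pair per length in CD45RBhi, 2.35% in CD45RBlo and 5.84% in naive libraries.

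Pdk1 had the largest fall of the 33 members. It had 89.7, 121, 109.8 and 106 CPM in CD45RBhi, 61.8, 100.1, 82.8 and 79.9 CPM in CD45RBlo, and 660.3, 672 and 685 CPM in naive libraries. No memory library came near the naive range. Pdk1 fell to 0.159 of the naive level in CD45RBhi (log2 -2.65 ± 0.141, adjusted p = 1.3e-08, edgeR) and to 0.121 of it in CD45RBlo cells (-3.05 ± 0.142, adjusted p = 3.78e-09). Pdk2, another kinase of the same family, averaged 22.5 ± 2.32 CPM in CD45RBhi, 24.8 ± 6.34 CPM in CD45RBlo and 42 ± 4.41 CPM in naive libraries and fell by 0.90 ± 0.169 (adjusted p = 0.000935) and by 0.76 ± 0.169 (adjusted p = 0.00279) on the log2 scale. Pdk3 averaged 74.6 ± 5.56, 66 ± 8.7 and 60.2 ± 5.83 CPM. Its rise in CD45RBhi cells was 0.31 ± 0.116 (adjusted p = 0.048, edgeR), and the CD45RBlo value was 0.13 ± 0.115 (adjusted p = 0.389). The CD45RBhi call was lost without CD45RBhi replicate 2, 3 or 4, CD45RBlo replicate 1 or 4, or naive replicate 2 or 3 (up to 0.179). The level of the 3 kinases summed per length was 157 ± 16.5 in CD45RBhi, 143 ± 23 in CD45RBlo and 441 ± 5.78 in naive libraries. Pdk1 made up 27.4% ± 0.967 of it in CD45RBhi, 23.7% ± 2.61 in CD45RBlo and 70.2% ± 2.14 in naive libraries, while Pdk3 made up 58.4%, 58.7% and 19.1%. The order of these kinases in memory libraries depends on the exon lengths used, 7779 bases for Pdk1 and 2561 for Pdk3. In CPM, Pdk1 stayed above Pdk3 in every library except CD45RBlo replicate 1, where they had 61.8 and 62.8 CPM. Among the 33 members, Pdk1 ranked 20 by level per length in both memory groups and 6 in naive libraries, and Pfkp ranked 6 in both memory groups and 16 in naive libraries. These ranks also take Gapdh as counted, at its uncertain level.

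The genes of pyruvate import and of the dehydrogenase had log2 fold changes of 0.39 or less in size. Mpc1 and Mpc2, the subunits of the mitochondrial pyruvate carrier, rose in CD45RBhi cells by 0.39 ± 0.146 (adjusted p = 0.0467, edgeR) and 0.37 ± 0.0982 (adjusted p = 0.00883), and had 0.15 ± 0.145 (adjusted p = 0.437) and 0.21 ± 0.098 (adjusted p = 0.107) in CD45RBlo cells. Mpc1 averaged 23.4 ± 2.85, 19.8 ± 3.41 and 17.8 ± 0.846 CPM and Mpc2 46.4 ± 3.5, 41.5 ± 2.54 and 35.9 ± 2.43 CPM in CD45RBhi, CD45RBlo and naive libraries. The Mpc1 call was lost without CD45RBhi replicate 1, 2 or 4, CD45RBlo replicate 4 or any 1 naive replicate (up to 0.14), near-identical copies hold 2792 counts beside its 4587, and 4930506C21Rik shares 23.1% of its exon bases. Pdha1, the subunit that the kinases phosphorylate, averaged 144 ± 9.12, 133 ± 5.82 and 164 ± 2.23 CPM. It fell in CD45RBlo cells (-0.31 ± 0.0744, adjusted p = 0.00496) and had -0.19 ± 0.0744 in CD45RBhi cells (adjusted p = 0.06, and 0.034 without CD45RBhi replicate 2). Pdhb, its partner subunit, averaged 165 ± 12.7, 156 ± 16.6 and 184 ± 14.3 CPM (adjusted p = 0.227 and 0.0738, the second 0.0401 without CD45RBlo replicate 2). Reads of Pdha1 and Map3k15, which share 16.1% of the exon bases of Pdha1, cannot be told apart there, since the strandedness of the counting is not given in the sources used here.

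Of the regulators, Hif1a averaged 180.3 ± 12.3 CPM in CD45RBhi, 179.7 ± 22.4 CPM in CD45RBlo and 123 ± 6.56 CPM in naive libraries and rose by 0.55 ± 0.103 in each memory group (adjusted p = 0.000831 and 0.000836, edgeR). Hypoxia-inducible factor is mainly controlled through the stability of this protein, which was not measured. Txnip, a brake on glucose uptake that is itself induced by glucose, ranged from 539 to 954 CPM in CD45RBhi, 586 to 929.6 CPM in CD45RBlo and 691 to 754 CPM in naive libraries. Its log2 fold changes were 0.07 ± 0.174 and 0.13 ± 0.175 (adjusted p = 0.764 and 0.573), and the memory libraries spread on both sides of the naive ones. Gm15441 shares 19.4% of the exon bases of Txnip.

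CD45RBhi against CD45RBlo, none of the 33 members passed the threshold in either direction in the model of all 11 libraries (edgeR quasi-likelihood test), where 0.0801% of all genes tested rose and 0.0437% fell (0.124% in either direction). At an unadjusted p under 0.05 there were 3 members, Pdk1, Pgam1 and Slc16a1, where 1236 of all genes tested (9%) reached that level, and DESeq2 also called 0 members. The median log2 fold change of the members was 0.08 (all genes 0). Libraries of the 2 groups did not overlap for Gapdh (0.15 log2, adjusted p = 0.634), Pgam1 (0.18, adjusted p = 0.499) and Ldha (0.13, adjusted p = 0.582), which were higher in CD45RBhi, and for no member in the other direction, beside 2.68% and 2.31% of all genes (4.99% in all).

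The replicate numbers paired the memory libraries, in that same-numbered CD45RBhi and CD45RBlo libraries deviated from their group means together. With the replicate number as a block in the 8 memory libraries, 1 member rose and 1 fell, beside 2.52% and 3.08% of 12637 genes tested (5.59% in either direction). Pdk1 was higher in CD45RBhi in each pair, by 0.53, 0.29, 0.41 and 0.41 on the log2 scale, although the groups of 4 overlapped. The fitted difference was 0.41 ± 0.0645 (adjusted p = 0.00422, edgeR with the block, against 0.376 without it and 0.167 to 0.72 over the settings without it), and it stayed under the threshold without any 1 pair (0.00275 to 0.0422). The level of Pdk1 in CD45RBhi was therefore 1.33-fold that in CD45RBlo cells, where both were far below naive. Ldhb was lower in CD45RBhi in each pair, by 1.71, 0.78, 0.38 and 0.27 on the log2 scale. The fitted difference was -0.75 ± 0.202 (adjusted p = 0.0498, edgeR with the block, against 0.668 without it). The call was lost whichever pair was left out (adjusted p = 0.052 to 0.126). Slc16a1, at 0.27 ± 0.0863 (adjusted p = 0.0919), passed without pair 2 (0.38, adjusted p = 0.0107).

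**Figure D4:**
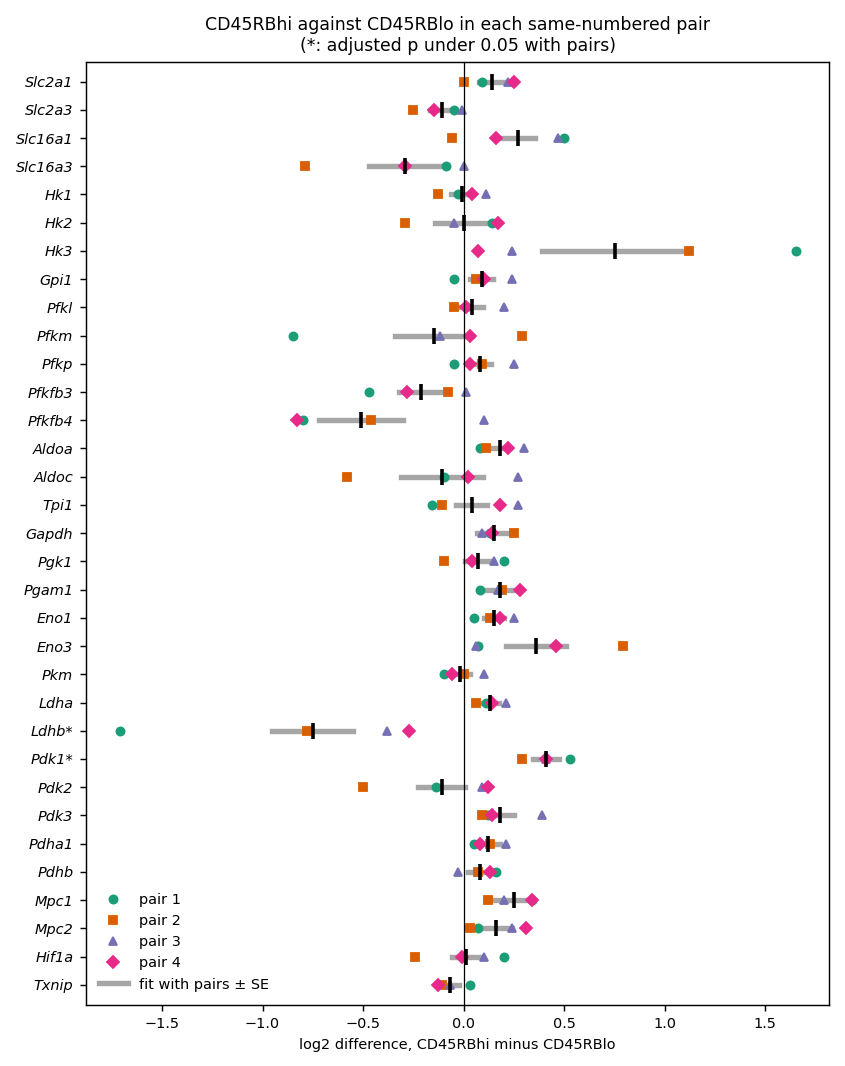
Log2 difference CD45RBhi minus CD45RBlo (x axis) of each member (rows) in the 4 same-numbered pairs of libraries (markers), with the fitted difference ± SE of the fit with pairs (grey bars); an asterisk marks an adjusted p under 0.05 in that fit. Pdk1 and Ldhb carry the asterisk, and each has the same sign in 4 of 4 pairs.

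The sign was the same in all 4 pairs for 15 members. In 12 of 33 the CD45RBhi library was the higher of every pair, where 14.7% of all genes were, and in 3 of 33 it was the lower, where 14.2% were (28.9% with 1 sign throughout). The 12 were Hk3, Aldoa, Gapdh, Pgam1, Eno1, Eno3, Ldha, Pdk1, Pdk3, Pdha1, Mpc1 and Mpc2, and the 3 were Slc2a3, Slc16a3 and Ldhb. For Slc16a3 the difference in pair 3 was 0 at the rounding used here, so its count of 4 rests on a difference too small to read. All but Pdk1 and Ldhb missed the threshold in the fit with pairs, so this is a description of signs. The 4 members of pyruvate import and dehydrogenase had fitted differences of 0.08 to 0.25, and the 2 genes of fructose 2,6-bisphosphate turnover -0.21 and -0.51.

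Within each memory group the members differed between libraries along the replicate number. The same replicate was highest in CD45RBhi and in CD45RBlo for 19 of 33 members (47.5% of all genes tested) and lowest for 16 of 33 (48.5%), shares near those of all genes. Replicate 2 was highest in both groups for 13 members, Gpi1, Pfkl, Pfkp, Aldoa, Eno1, Eno3, Pkm, Ldhb, Pdk1, Pdk3, Pdha1, Pdhb and Mpc1. The share of all genes was not counted for replicate 2 alone, so 13 of 33 is only a description. Replicate 2 was lowest in both for Slc2a3, Slc16a3, Hk2 and Txnip, and replicate 1 was highest in both for Slc2a3, Hk2 and Txnip. Hk2 was thus 14.9 CPM in CD45RBhi replicate 1 and 5.34 CPM in replicate 2, and 13.5 and 6.59 CPM in the same replicates of CD45RBlo. Ldhb ran the other way, at 2.61 and 14.3 CPM in CD45RBhi and 8.72 and 24.8 CPM in CD45RBlo. Replicate 2 also had the lowest Cd44 of each memory group, 187 CPM in CD45RBhi and 176 CPM in CD45RBlo, and the highest Ighm, 479.9 and 414 CPM. Replicate 1 had the highest Cd44, 328 and 270.1 CPM, and the lowest Ighm, 168 and 167 CPM. These genes were chosen after their values were seen, and other B cell markers followed Ighm only in part. In CD45RBhi libraries, Cd79b was at 10.4 CPM in replicate 1 and 6.64 CPM in replicate 2, and Cd74 at 14.7 and 3.08 CPM. In CD45RBlo libraries replicate 2 was the highest for both. Cd79b was there at 4.42 and 4.46 CPM in replicates 1 and 2, and Cd74 at 5.83 and 7.07 CPM. The cell cycle marker Mki67 was lowest in replicate 2 of each memory group, at 5.08 CPM in CD45RBhi and 4.75 CPM in CD45RBlo, beside 12.5 to 19.5 and 14.6 to 18.8 CPM in the other libraries of these groups. Naive libraries stood at 12.1 to 17.8 CPM of Cd44 and 1075 to 1220.3 CPM of Ighm. The part of these differences in the values of the members was not tested.

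**Figure D5:**
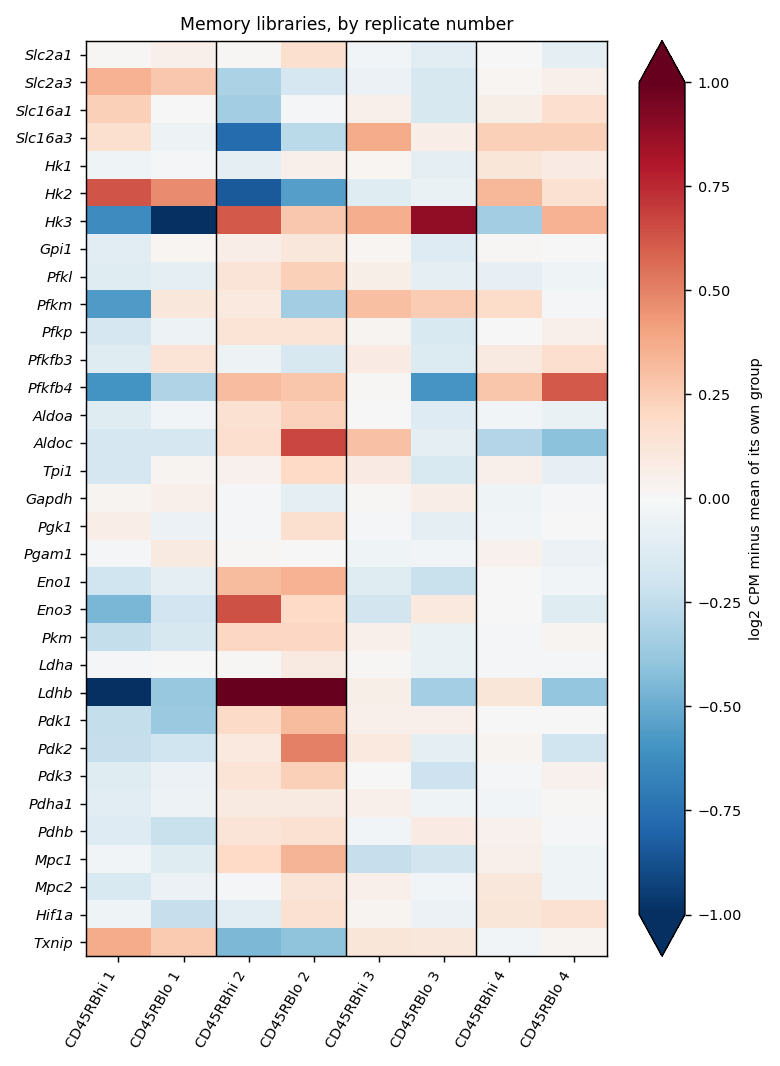
Deviation of each member (rows) in each memory library (columns, same-numbered CD45RBhi and CD45RBlo side by side) from the mean of its own group, in log2 CPM (colour). Hk2, Slc2a3 and Txnip are red in both replicate 1 libraries and blue in both replicate 2 libraries, and Ldhb is the reverse.

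Genes of the same pathways outside the 33 were counted in 5 further lists, to be read beside the 41.5% (CD45RBhi) and 42.2% (CD45RBlo) of all genes tested that passed against naive in either direction. Of 29 further genes of glucose handling, 20 were tested, and 8 rose and 3 fell in CD45RBhi, and 7 rose and 3 fell in CD45RBlo cells against naive, 55% and 50% of those tested. Bsg (basigin), the chaperone that carries the lactate transporters to the cell surface, had the smallest p of that list. It averaged 279 ± 16.4 CPM in CD45RBhi, 258 ± 25.1 CPM in CD45RBlo and 146 ± 9.54 CPM in naive libraries and rose by 0.94 ± 0.0922 (adjusted p = 4.21e-06, edgeR) and 0.82 ± 0.0919 (adjusted p = 1.25e-05). Of 10 tested genes around pyruvate dehydrogenase, 2 rose and 2 fell in CD45RBhi and 3 rose and 2 fell in CD45RBlo cells, 40% and 50% of those tested and near the share of all genes. Me2, the mitochondrial malic enzyme, which makes pyruvate from malate, averaged 274 ± 34.7, 236 ± 37.3 and 176 ± 7.57 CPM and rose by 0.64 ± 0.126 and 0.42 ± 0.125 (adjusted p = 0.00128 and 0.0167). With pairs, it was higher in CD45RBhi than in CD45RBlo cells by 0.23 ± 0.0571 (adjusted p = 0.0381, against 0.6 without the block). All 9 genes of the pentose phosphate pathway, which branches off at glucose 6-phosphate, were tested. In CD45RBhi cells 3 rose and 0 fell, and in CD45RBlo cells 4 rose and 2 fell, 33.3% and 66.7% of those tested. G6pdx, its first enzyme, averaged 141 ± 5.91, 137 ± 9.01 and 105 ± 5.68 CPM and rose by 0.42 ± 0.0799 and 0.38 ± 0.0799 (adjusted p = 0.00103 and 0.00185).

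Of 15 tested genes of the hypoxia-inducible factor axis, 4 rose and 3 fell in CD45RBhi and 5 rose and 3 fell in CD45RBlo cells, with medians of 0.15 and 0.23. The shares that passed, 46.7% and 53.3%, compare with 41.5% and 42.2% of all genes tested. Epas1 had the largest rise of this list, by 2.13 and 2.07 on the log2 scale (adjusted p = 0.00134 and 0.00154, edgeR). Kdm3a, a histone demethylase known as a target of the factor, averaged 108 ± 12.6 CPM in CD45RBhi, 136 ± 7.31 CPM in CD45RBlo and 176 ± 17 CPM in naive libraries. It fell by 0.70 ± 0.101 in CD45RBhi (adjusted p = 0.000126, edgeR) and by 0.37 ± 0.102 in CD45RBlo cells (adjusted p = 0.0104). With pairs it was lower in CD45RBhi than in CD45RBlo cells by 0.33 ± 0.0675 (adjusted p = 0.0159, against 0.297 without the block). Mxi1, which encodes a repressor of the Myc network, was the other gene of this list to pass with pairs, with -0.41 (adjusted p = 0.02, against 0.27 without the block). Vhl, which marks the alpha subunit for breakdown, averaged 58.4 ± 3.5, 63.6 ± 2.25 and 46.1 ± 1.57 CPM and rose by 0.34 ± 0.0832 and 0.46 ± 0.0834 (adjusted p = 0.00533 and 0.000633). Of 7 tested genes around Txnip, 1 rose and 1 fell in CD45RBhi and 1 rose in CD45RBlo cells, 28.6% and 14.3% of those tested and below the shares of all genes. Txn1, the thioredoxin that Txnip binds, averaged 132 ± 18.4 CPM in CD45RBhi, 118 ± 14 CPM in CD45RBlo and 60.4 ± 6.15 CPM in naive libraries and rose by 1.13 ± 0.133 and 0.97 ± 0.132 (adjusted p = 2.14e-05 and 6.91e-05).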

How the data were processed

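RNA sequencing of 11 libraries of sorted mouse CD8 T cells (4 CD45RBhi, 4 CD45RBlo, 3 naive) was analysed from the 1 table of raw counts per Ensembl gene that the authors deposited, not normalized. Per the submitters' processing notes, the tools were featureCounts, SAMtools and DESeq2 and the builds GRCm38 and mm10, without versions. Aligner, annotation release and strandedness: not given in the sources used here. Groups were taken from the sample labels.

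Genes were kept with filterByExpr (minimum count 10), which left 13735 genes with at least 99.9% of each library's counts. One model of group means over all 11 libraries was fitted with edgeR 4.0.16 (R 4.3.3, limma 3.58.1) after TMM scaling, and the two-sided quasi-likelihood F test compared groups (Benjamini-Hochberg adjustment over all genes, threshold 0.05; coefficient of variation 18.7%). Fold changes are the first-named group over the second, levels are TMM-scaled CPM ± SD, and fold changes carry ± SE. Counting error is the only error that the level of 3 counts covers. DESeq2 1.42.0 was an alternative, beside other scalings, no filter, 2-group fits and leaving out each library.

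The replicate numbers, which the labels share between groups, were checked for pairing. Across genes, the deviation of a CD45RBhi library from its group mean correlated at 0.191 to 0.452 with that of the CD45RBlo library of the same number and at no more than 0.0284 with the others, so these were taken as pairs. For memory with naive libraries of the same number the range was -0.101 to 0.0565, and for those of other numbers -0.0697 to 0.121. Memory and naive libraries were therefore not paired. The fit of the 8 memory libraries with the number as a block tested 12637 genes (coefficient of variation 9.88%).

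Positions and exon lengths came from GENCODE M21 on GRCm38 (52489 of the 52636 identifiers), which need not be the annotation counted on. A copy is an annotated transcript of another gene that blastn 2.17.0 aligned at 95% identity or more over at least 200 bases. Copies were found for 11 members, and 14 share exon bases with another gene. Promoter windows are RefSeq's, the first listed for each gene. Figures were drawn with matplotlib 3.10.9. The members and the further lists were chosen with earlier results of these data known. All 33 members are named, values per library are given for members called between the memory groups or past a log2 fold change of 1 in size and called against naive, and each further list is represented by its called gene or genes with the smallest p. Outside that rule, Mxi1 is named because it passed with pairs and Epas1 because it had the largest rise of its list.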

Additional observations from a re-analysis of the deposited data

Results flagged for a closer look

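In a group of 4 libraries, a library was singled out where its gap to the nearest other library divided by the range of the group exceeded Dixon's 95% critical value, which chance gives in about 1 in 20 groups. Of 66 groups tested over the members, 5 passed, 4 of them in CD45RBlo replicate 2. These were Pgk1 in CD45RBhi replicate 1, at 141 CPM with the nearest library at 133, and, in CD45RBlo replicate 2, Pfkl at 271 CPM (nearest 224), Ldhb at 24.8 CPM (nearest 8.97), Pdk2 at 34.2 CPM (nearest 22.6) and Mpc2 at 45.3 CPM (nearest 40.7).

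CD45RBhi and CD45RBlo differed for 2 members in the fit with the replicate number as a block, which holds memory libraries only. These were 6.06% of the 33 members, near the 5.59% of all genes tested that passed in that fit. The difference was 0.41 on the log2 scale for Pdk1 and -0.75 for Ldhb (CD45RBhi minus CD45RBlo, adjusted p = 0.00422 and 0.0498, edgeR), with the same sign in 4 of 4 pairs for each. The Ldhb call was lost whichever pair was left out. In the model of all 11 libraries, without the block, the adjusted p was 0.376 for Pdk1 and 0.668 for Ldhb (edgeR).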

How the results depend on the processing

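Over 1815 values of a member under an alternative, 1727 kept their side of the threshold, 66 called ones lost it and 22 gained it, and no called value changed direction. All losses were in the comparisons with naive. Between the memory groups no member was called at the start, so no call could be lost there. A change of sign was counted 45 times between values that passed nowhere. The replicate block moved CD45RBhi against CD45RBlo from 0 members in either direction to 1 higher and 1 lower. Without 1 pair, 1 to 2 were higher. With naive libraries in the block, 17 rose and 6 fell in CD45RBhi (Eno3 was added, -0.58, adjusted p = 0.0406), and 13 rose and 9 fell in CD45RBlo cells (Pfkfb3 and Pgk1 lost at 0.0572 and 0.0635, Pfkfb4 added at 0.0359). It changed no other call of the members. Against naive, scaling by library size alone gave 9 lower members in CD45RBhi instead of 5, with the median of all genes shifted to -0.16, and took Pgk1, Pkm, Pdk3, Mpc1 and Mpc2 out of the calls there. RLE size factors gave 15 higher and 5 lower in CD45RBhi and 14 and 8 in CD45RBlo, DESeq2 16 and 7, and 15 and 8, no filter 15 and 5, and 13 and 8, and fits of 2 groups 17 and 5, and 14 and 8. Leaving out 1 library gave 13 to 18 higher and 4 to 7 lower in CD45RBhi, 12 to 15 higher and 6 to 9 lower in CD45RBlo, and 0 between the memory groups. In CD45RBhi against CD45RBlo, 17 genes of the whole table passed, 707 with the block, 145 with DESeq2 and 4 in the fit of 2 groups. The causes were not tested. Depth limits Hk2, Hk3 and Slc16a3, with 5 to 40 counts in some libraries.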
